A study of Brassica rapa subsp. pekinensis with 6 samples.

Results

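The genes described here carry nitrogen, phosphate and sulfate into and through the plant, or reduce nitrate and bind ammonium once it is inside. They were chosen by name, as the reference transcripts of the linear transcript table whose description holds NRT1/ PTR, nitrate, ammonium transporter, inorganic phosphate transporter, phosphate transporter PHO1, SPX domain, sulfate transporter, nitrite reductase or glutamine synthetase. This gave 175 transcripts of 33354 reference transcripts and of 57931 linear transcripts in all. By role, 68 belonged to the NPF family (called NRT1/ PTR in the annotation), 16 were other nitrate transporters, 5 were nitrate or nitrite reductases, 9 were ammonium transporters, 9 were glutamine synthetases, 23 were phosphate uptake transporters, 20 were PHO1 proteins, 8 were SPX proteins and 17 were sulfate transporters.

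The 6 libraries came from germinated seeds of the Chinese cabbage double haploid line 'FT' (Brassica rapa subsp. pekinensis). In the Ver group, germinated seeds were held at 4 °C in darkness for 25 days (n = 3 dishes). In the Nor group, germinated seeds stayed at room temperature for about 48 h (n = 3 dishes), also in the dark and with no low-temperature step. Both groups were collected at an equal length, each dish was a biological repetition, and all seeds were of 1 line, so age and temperature both separate Ver from Nor, and their parts cannot be told apart. The p-values below measure the spread between dishes.

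Roots take up nitrate, ammonium, phosphate and sulfate with separate families of membrane transporters, of which the NRT2, PHT1 and SULTR1 proteins work at low outside concentrations and many NPF proteins carry nitrate between cells and tissues. Nitrate is reduced to nitrite in the cytosol and to ammonium in the plastid, and glutamine synthetase then binds ammonium into glutamine. PHO1 proteins export phosphate, in Arabidopsis into the xylem, and SPX domains sense phosphate status. A germinating seed draws its first nitrogen, phosphorus and sulfur from reserves in the embryo, before uptake from outside takes over.

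The estimated counts totalled between 83976912 and 104903263 per library, and the 175 transcripts held between 0.254% and 0.284% of them. Tissue markers differed strongly between the groups. Summed over 33 seed storage transcripts (cruciferins, napins and oleosins, 20 rose and 2 fell of 29 tested), the level was 1468 to 1502 FPKM in Ver libraries, against 89.1 to 96.5 FPKM in Nor libraries. The 24 chlorophyll a-b binding transcripts (12 rose and 0 fell of 23 tested, by edgeR) summed to 12602 to 12733 FPKM in Ver libraries, against 3470 to 3528 FPKM in Nor libraries. The 11 Casparian strip membrane proteins, which mark the root endodermis, summed to 30.2 to 31.0 FPKM in Ver libraries, against 42.3 to 44.6 FPKM in Nor libraries (1 rose and 2 fell of 11 tested). No marker in the 3 lists was at 0 in all libraries. In bulk seeds, fewer cells of a type and less RNA per cell cannot be told apart, and the part of tissue make-up in the results below was not tested.

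Of the 175 transcripts, 148 had enough counts to be tested with edgeR and 27 did not. A transcript was called when its absolute log2 fold change was above 1 and its Benjamini-Hochberg adjusted p was at most 0.05. By this rule 30 transcripts rose in Ver and 26 fell, which is 56 of the 148 (37.8%), while 15.0% of all tested reference transcripts were called (6.98% rose and 8.00% fell). Each count of called members in a role, subfamily or name below is to be read beside this share of 15.0%. Some of them include members that were not detected in 1 group and passed the count filter through the other group alone. A further 27 had an adjusted p of at most 0.05 with a change under 2-fold (at any fold, 33.9% of all tested reference transcripts had such a p, 16.0% higher and 17.9% lower in Ver), and 65 did not pass. In all 56 called transcripts the normalized counts of the Ver and Nor libraries did not overlap. The call rule favours such separation in small groups, so it adds no support to the calls. The share over all called reference transcripts is not given here. The median log2 fold change of the 148 was 0.11, against -0.01 over all tested reference transcripts, so rises and falls nearly balanced. The summed level was close as well, at 1218 to 1261 FPKM in Ver libraries, against 1287 to 1340 FPKM in Nor libraries.

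**Figure D1:**
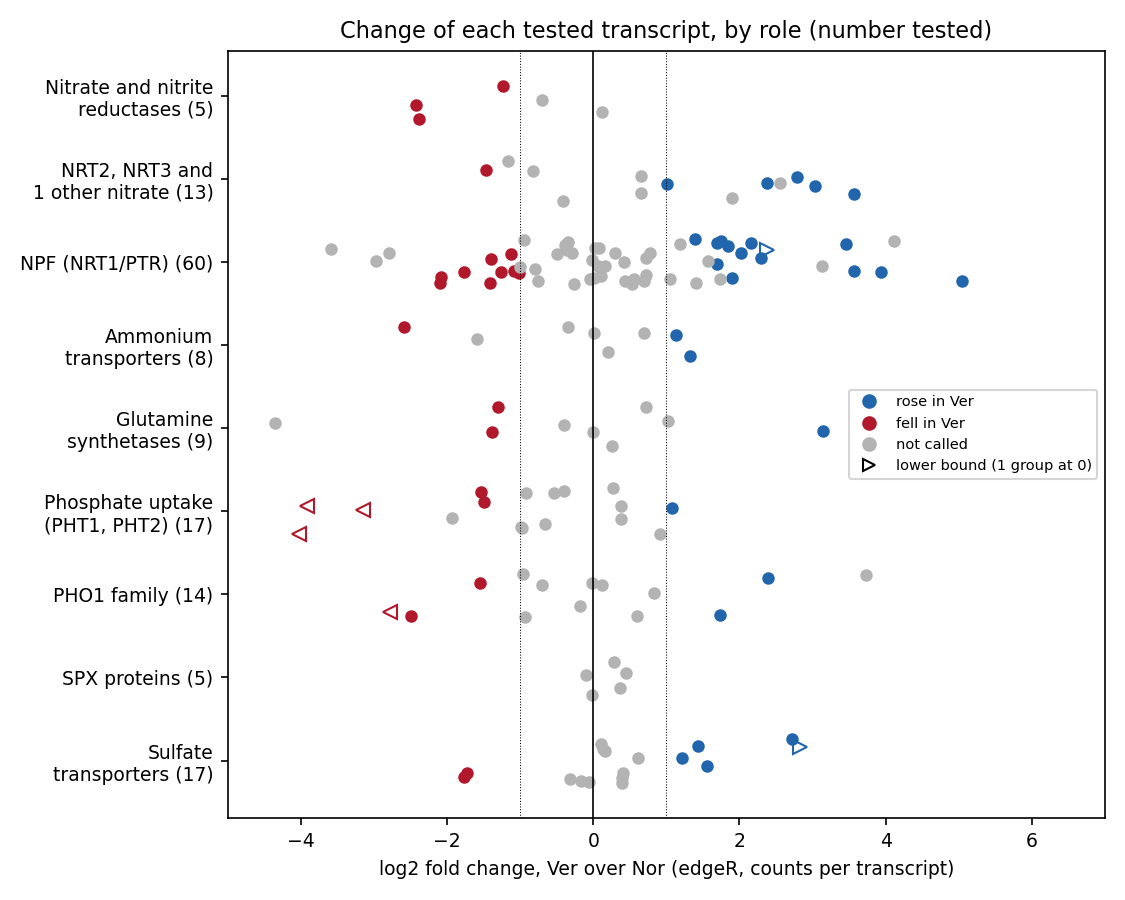
Log2 fold change of Ver over Nor for each of the 148 tested transcripts, 1 point per transcript in rows by role, with the number tested in brackets. Blue points rose and red points fell by the call rule, grey points were not called, dotted lines mark 2-fold, and triangles stand at the lower bound of transcripts with a count of 0 in every library of 1 group. The reductases lie at or left of 0 apart from 1 grey point, and most called nitrate transporters outside the NPF family lie to the right.

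Calls were frequent at every level of expression. Among members with a mean below 1 FPKM, 14 rose and 13 fell of 68 tested (39.7%, against 14.7% of all reference transcripts at that level). Between 1 and 10 FPKM, 13 rose and 7 fell of 48 (41.7%, against 15.6%). At 10 FPKM or more, 3 rose and 6 fell of 32 (28.1%, against 14.2%). Of the 56 called, 23 stayed below 1 FPKM on average in both groups, and 45 were called with each library left out in turn.

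**Figure D2:**
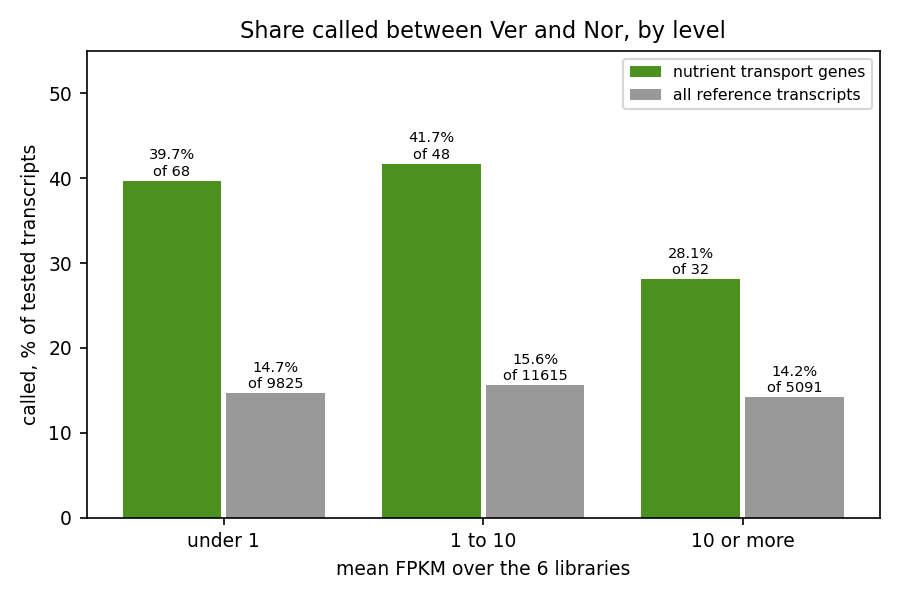
Share of tested transcripts called between Ver and Nor (y axis, %), in 3 classes of mean FPKM over the 6 libraries (x axis), for the nutrient transport genes (green) and all reference transcripts (grey), with the number tested above each bar. The green bars stand at 28.1% to 41.7% and the grey bars at 14.2% to 15.6%.

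Of the 5 nitrate and nitrite reductase transcripts 3 fell and none rose (60.0%, against 15.0% of all tested reference transcripts). Their summed level was 18.9 ± 0.387 FPKM in Ver and 64.0 ± 0.703 FPKM in Nor (SD, n = 3 each), a ratio of 0.296. Nitrate reductase converts nitrate to nitrite and is the first committed step of nitrate assimilation. The more abundant copy, BraA07g040960.3C (clone PBNBR1405, B. rapa v3.0 A07:27700368-27703652, minus strand), had 5.92, 5.61 and 6.05 FPKM in the Ver libraries, against 30.5, 30.9 and 30.4 FPKM in the Nor libraries. The groups were far apart, and the log2 fold change was -2.39 ± 0.04 (SE, edgeR adjusted p = 4.49e-06), the smallest adjusted p of any fall among the members. A second copy, BraA07g026900.3C (clone PBNBR1412, A07:20366141-20369684, plus strand), had 3.71, 3.42 and 3.65 FPKM in Ver libraries, against 18.96, 19.6 and 19.5 FPKM in Nor libraries, and its log2 fold change was -2.43 ± 0.04 (edgeR adjusted p = 5.94e-06). These copies fell by nearly the same factor, 5.23-fold and 5.39-fold, and they lie on 1 chromosome more than 25000 bp apart. The remaining copy, BraA02g024390.3C (PBNBR1412-like), overlapped between the groups, with 3.42, 3.800 and 3.58 FPKM in Ver libraries and 3.19, 3.31 and 3.44 FPKM in Nor libraries (log2 fold change 0.12, edgeR adjusted p = 0.262). It was the lowest of the 3 in Nor, and in Ver it stood level with PBNBR1412.

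Nitrite reductase, the plastid enzyme of the following step, has a pair of copies. BraA09g010360.3C (A09:5957922-5959928, plus strand) had 1.5002, 1.78 and 1.47 FPKM in Ver libraries, against 3.87, 3.62 and 3.68 FPKM in Nor libraries, and fell with a log2 fold change of -1.24 ± 0.11 (edgeR adjusted p = 0.00104). The more abundant BraA07g005240.3C had 4.39, 3.96 and 4.58 FPKM in Ver libraries and 6.78, 7.22 and 7.08 FPKM in Nor libraries. Its groups did not overlap, but its log2 fold change of -0.71 was under 2-fold (edgeR adjusted p = 0.001703).

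Glutamine synthetase changed in opposite directions between isozymes. Of 9 transcripts, 1 rose and 2 fell (33.3%, against 15.0% of all tested reference transcripts). The summed level of the 7 cytosolic forms was 155 ± 1.99 FPKM in Ver and 240.0 ± 6.59 FPKM in Nor (SD, n = 3 each). Isozyme 1-1 (BraA04g010460.3C, A04:8265796-8268190, minus strand) had 33.1, 35.1 and 32.5 FPKM in Ver libraries, against 84.4, 89.4 and 89.1 FPKM in Nor libraries (log2 fold change -1.39 ± 0.04, edgeR adjusted p = 2.44e-05). Isozyme 1-3 (BraA05g029760.3C, A05:21962814-21964677, minus strand) had 43.8, 40.8 and 43.8 FPKM in Ver libraries, against 106, 108 and 104 FPKM in Nor libraries (log2 fold change -1.31 ± 0.04, edgeR adjusted p = 1.93e-05). Both forms are known from Arabidopsis roots, and both fell to well under their Nor level in every dish. Isozyme 1-5 (BraA06g004530.3C, A06:2680939-2683194, minus strand) had 12.1, 13.5 and 13.2 FPKM in Ver libraries, against 1.44, 1.32 and 1.599 FPKM in Nor libraries. It rose 8.86-fold, with a log2 fold change of 3.15 ± 0.11 (edgeR adjusted p = 3.58e-05), and every Ver library was above every Nor library. The 1-4-like form BraA02g006550.3C was at 59.2, 60.1 and 61.01 FPKM in Ver libraries and 35.4, 37.5 and 35.8 FPKM in Nor libraries, with a log2 fold change of 0.73 that was under 2-fold (edgeR adjusted p = 7.17e-05). In Nor, isozymes 1-3 and 1-1 led the cytosolic forms, and in Ver the 1-4-like form stood above both.

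The chloroplast form, which in leaves recovers ammonium from photorespiration, held the member with the highest mean FPKM in both groups, BraA04g009580.3C. In Ver 1 and Ver 2 it was below the SULTR3.3 transcript BraA09g040030.3C, described below. BraA04g009580.3C had 103, 95.2 and 128 FPKM in Ver libraries and 131, 168 and 130.2 FPKM in Nor libraries (log2 fold change -0.399 ± 0.15, edgeR adjusted p = 0.104). This difference per transcript did not pass the test, and Nor 2 stood above the other Nor libraries. With isoforms added up, the assembled gene had 22150, 21661 and 22186 normalized counts in Ver libraries. It had 27948, 28886 and 28273 in Nor libraries, so the groups did not overlap. The log2 fold change of this sum was -0.37 ± 0.03, lower in Ver but under 2-fold (edgeR adjusted p = 5.20e-06). The chloroplast-like copy BraA08g009150.3C showed no such difference. It had 72.4, 77.7 and 75.6 FPKM in Ver libraries and 75.2, 74.8 and 75.3 FPKM in Nor libraries, which overlapped (edgeR adjusted p = 0.998). The log2 fold change of its gene sum was 0.02 ± 0.03. The circRNAs mapped to members came from glutamine synthetases, and their junction reads were few. One from BraA04g009580.3C had 0, 0 and 0 reads in Ver libraries and 3, 0 and 3 reads in Nor libraries, and one from BraA05g029760.3C had 0, 0 and 0 reads in Ver libraries and 0, 0 and 1 read in Nor libraries, too few to compare.

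**Figure D3:**
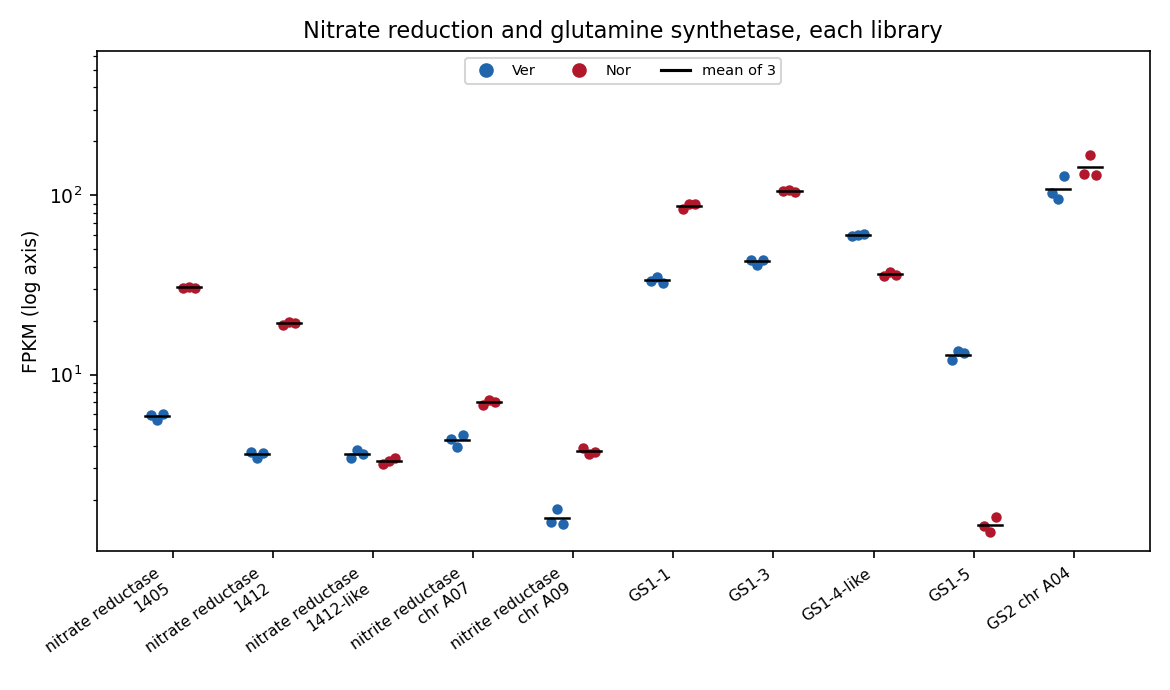
FPKM (log axis) of 3 nitrate reductases, 2 nitrite reductases and 5 glutamine synthetases (GS1, cytosolic; GS2, chloroplast) in each library, Ver in blue left of Nor in red, with black lines at the mean of 3. Both A07 nitrate reductases and isozymes GS1-1 and GS1-3 are lower in Ver, GS1-5 is higher in Ver, and the PBNBR1412-like copy overlaps.

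Among the NRT2 transporters, the high-affinity nitrate carriers, 5 rose and 1 fell of 9 tested (66.7%, against 15.0% of all tested reference transcripts). All were low, and their sum was 7.02 ± 0.755 FPKM in Ver and 4.97 ± 0.667 FPKM in Nor (SD, n = 3 each). The member annotated as NRT2.1, the main high-affinity uptake carrier of Arabidopsis roots (BraA09g062960.3C, A09:43584100-43585959, plus strand), had 1.099, 0.759 and 1.03 FPKM in Ver libraries, against 0.166, 0.179 and 0.204 FPKM in Nor libraries. It rose with a log2 fold change of 2.38 ± 0.24 (edgeR adjusted p = 0.001301). An NRT2.1-like copy, BraA06g005340.3C, went the other way, with 0.985, 0.916 and 0.7600 FPKM in Ver libraries, against 2.95, 1.81 and 2.62 FPKM in Nor libraries (log2 fold change -1.47 ± 0.24, edgeR adjusted p = 0.00698). Among 42 names with at least 2 tested copies, NRT2.1 alone had a copy that rose and a copy that fell by counts per transcript, and on gene sums PHO1 homolog 2 did so too. NRT2.7, which in Arabidopsis loads nitrate into seed vacuoles (BraA02g005540.3C), had 0.7101, 0.664 and 0.961 FPKM in Ver libraries, against 0.0752, 0.111 and 0.139 FPKM in Nor libraries. It rose with a log2 fold change of 2.79 ± 0.33 (edgeR adjusted p = 0.00241). NRT2.5 and both NRT2.6 copies rose as well, with means of 0.514 to 2.67 FPKM in Ver, against 0.0407 to 1.32 FPKM in Nor. The NRT2.6 copies BraA01g025690.3C and BraA06g021160.3C lost their calls when single libraries were left out, the first without any library except Nor 1 and the second without Nor 1, Nor 2 or Ver 3. NRT3.1, the partner that NRT2 proteins need for transport, was the most abundant member of this group (BraA03g026180.3C) and had 17.8, 18.4 and 19.9 FPKM in Ver libraries and 26.2, 23.4 and 24.7 FPKM in Nor libraries. Its groups did not overlap, at a log2 fold change of -0.41 (edgeR adjusted p = 0.0101), under 2-fold. NRT3.1-like BraA02g016320.3C was lower too (-0.83, edgeR adjusted p = 0.00272), also under 2-fold. On gene sums alone, NRT3.1-like BraA10g008560.3C was called higher in Ver (log2 fold change 1.52 ± 0.14, edgeR adjusted p = 1.41e-05), though this reference transcript held 0.79% of the counts. So was NRT3.2 BraA01g015480.3C, at low counts (2.58 ± 0.93, edgeR adjusted p = 0.0395).

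The NPF family (68 members, 60 tested) had 14 rises and 9 falls (38.3%, against 15.0% of all tested reference transcripts). Its summed level was 392 ± 6.53 FPKM in Ver and 398 ± 3.23 FPKM in Nor (SD, n = 3 each). The subfamilies were uneven. NPF3 summed to 24.6 ± 1.17 FPKM in Ver and 8.43 ± 0.434 FPKM in Nor, with 2 of 3 members that rose, and NPF5 summed to 20.5 ± 1.01 FPKM in Ver and 11.5 ± 0.172 FPKM in Nor, with 4 rises and 3 falls. NPF6 summed to 58.3 ± 0.905 FPKM in Ver and 78.3 ± 1.90 FPKM in Nor, while NPF1 (4 tested) and NPF8 (5 tested) had no called member in edgeR, with 1 and 3 members at an unadjusted p under 0.05.

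NPF6.3 is NRT1.1, the nitrate carrier and nitrate sensor of Arabidopsis roots. Its A08 copy (BraA08g031180.3C, A08:20956829-20960518, minus strand) had 16.5, 16.4 and 15.8 FPKM in Ver libraries, against 42.9, 44.8 and 42.4 FPKM in Nor libraries. It fell with a log2 fold change of -1.42 ± 0.04 (edgeR adjusted p = 1.51e-05). The A09 copy (BraA09g060970.3C) overlapped between groups, with 22.7, 20.2 and 22.2 FPKM in Ver libraries and 21.3, 22.6 and 21.8 FPKM in Nor libraries (log2 fold change -0.02, edgeR adjusted p = 0.858). NPF6.4-like BraA01g032090.3C (A01:21885380-21889127, plus strand) had 7.96, 7.77 and 7.99 FPKM in Ver libraries, against 2.55, 2.06 and 2.41 FPKM in Nor libraries, and rose with a log2 fold change of 1.75 ± 0.101 (edgeR adjusted p = 1.91e-04). NPF7.2-like BraA01g012370.3C, named for a protein that removes nitrate from the xylem in Arabidopsis (NRT1.8), had 3.61, 3.47 and 3.104 FPKM in Ver libraries, against 0.712, 0.726 and 0.836 FPKM in Nor libraries. All Ver libraries were above all Nor libraries, at a log2 fold change of 2.16 ± 0.13 (edgeR adjusted p = 2.08e-04).

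NPF3.1, which carries nitrite and gibberellin in Arabidopsis, rose in both of its higher copies. BraA07g033670.3C (A07:24040121-24045889, plus strand) had 20.6, 20.7 and 22.7 FPKM in Ver libraries, against 7.53, 8.07 and 8.65 FPKM in Nor libraries, at a log2 fold change of 1.396 ± 0.07 (edgeR adjusted p = 1.15e-04). The NPF3.1-like BraA07g030700.3C had 3.03, 3.397 and 3.104 FPKM in Ver libraries, against 0.262, 0.291 and 0.0589 FPKM in Nor libraries, at 3.94 ± 0.64 on the log2 scale (edgeR adjusted p = 0.00724). The groups were wide apart in both, and the NPF3.1-like copy was lowest in Nor 3. In NPF5, the 5.7-like BraA07g021490.3C had 6.54, 4.74 and 7.09 FPKM in Ver libraries, against 1.03, 1.38 and 1.32 FPKM in Nor libraries (log2 fold change 2.29 ± 0.21, edgeR adjusted p = 9.29e-04). NPF5.9 BraA05g040690.3C had 4.57, 4.41 and 4.42 FPKM in Ver libraries, against 1.12, 1.16 and 0.998 FPKM in Nor libraries (log2 fold change 2.03 ± 0.103, edgeR adjusted p = 1.22e-04). NPF5.8 BraA02g005730.3C had 1.08, 0.856 and 0.876 FPKM in Ver libraries, against 0.0167, 0.0184 and 0.0416 FPKM in Nor libraries. Its log2 fold change of 5.05 ± 0.45 was the largest rise among members that had counts in both groups (edgeR adjusted p = 8.63e-04), and in each of these 3 NPF5 transcripts the groups did not overlap.

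Falls in NPF5 were at means under 4 FPKM, and that of NPF5.16 BraA09g040490.3C was lost without Nor 1, Ver 1 or Ver 2. NPF5.5, named in Arabidopsis for nitrogen accumulation in the embryo (BraA05g007530.3C), averaged 0.4202 ± 0.0709 FPKM in Ver and 1.11 ± 0.0422 FPKM in Nor (SD, n = 3 each), at a log2 fold change of -1.402 (edgeR adjusted p = 0.00436). NPF5.11-like BraA07g036540.3C, whose Arabidopsis namesake moves nitrate across the vacuole membrane, averaged 0.839 ± 0.118 FPKM in Ver and 1.83 ± 0.1702 FPKM in Nor (log2 fold change -1.12, edgeR adjusted p = 0.00585). In NPF4, the 4.3-like BraA01g027720.3C rose to 1.004 ± 0.146 FPKM in Ver, against 0.308 ± 0.0314 FPKM in Nor (log2 fold change 1.69, edgeR adjusted p = 0.00242). NPF4.5 BraA07g013380.3C fell to 0.431 ± 0.1503 FPKM in Ver, against 1.47 ± 0.213 FPKM in Nor (log2 fold change -1.77, edgeR adjusted p = 0.00828). No library of NPF5.5, NPF5.11-like, NPF4.3-like or NPF4.5 crossed into the other group.

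In NPF2, which in Arabidopsis holds the glucosinolate carriers NPF2.10 and NPF2.11 beside nitrate carriers, 4 of 18 members rose and 3 fell. NPF2.13 is NRT1.7 of Arabidopsis, which loads nitrate from old leaves into the phloem. Its A02 copy (BraA02g019460.3C, A02:11150404-11157116, plus strand) had 3.32, 3.58 and 3.69 FPKM in Ver libraries, against 0.237, 0.472 and 0.253 FPKM in Nor libraries, and rose 10.9-fold (log2 fold change 3.45 ± 0.32, edgeR adjusted p = 0.00104). A more abundant copy on A07 (BraA07g034740.3C) had 12.6, 11.96 and 12.5 FPKM in Ver libraries and 20.8, 20.4 and 21.4 FPKM in Nor libraries (log2 fold change -0.76, under 2-fold, edgeR adjusted p = 1.22e-04). The NPF2.13-like BraA07g030190.3C, also on A07, had the highest mean level of the name. It had 20.9, 18.6 and 21.0 FPKM in Ver libraries and 19.0, 19.6 and 19.1 FPKM in Nor libraries, which overlapped (log2 fold change 0.06, edgeR adjusted p = 0.520). The NPF2.11-like BraA09g007380.3C (A09:4272585-4274886, minus strand) had 1.92, 1.61 and 1.95 FPKM in Ver libraries, against 7.57, 7.78 and 8.08 FPKM in Nor libraries, and fell with a log2 fold change of -2.097 ± 0.098 (edgeR adjusted p = 8.99e-05). Its neighbour on the same strand, BraA09g007360.3C, a partial NPF2.11-like model at A09:4260320-4262091, minus strand, fell with nearly the same log2 fold change of -2.08 ± 0.38 at a lower level (edgeR adjusted p = 0.0113). Reads of near-identical neighbours may be split between them, so their levels are uncertain. The NPF2.11-like copy on A06 (BraA06g026290.3C), with 38.8, 36.7 and 36.7 FPKM in Ver libraries and 28.6, 27.9 and 26.7 FPKM in Nor libraries, was above its Nor level by less than 2-fold (log2 fold change 0.43, edgeR adjusted p = 0.00138).

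Of the 5 NPF members with the highest mean level, NPF6.3 BraA08g031180.3C fell, as given above, and the other 4, among them NPF2.11-like BraA06g026290.3C, stayed within 2-fold. NPF2.10-like BraA06g019030.3C averaged 51.5 ± 1.16 FPKM in Ver and 62.6 ± 1.94 FPKM in Nor (SD, n = 3 each, log2 fold change -0.29, edgeR adjusted p = 0.00191). NPF8.3 BraA06g039940.3C, a dipeptide carrier in Arabidopsis (PTR2), averaged 48.7 ± 1.26 FPKM in Ver and 48.1 ± 0.571 FPKM in Nor (log2 fold change 0.01, edgeR adjusted p = 0.784). NPF1.2 BraA06g002150.3C, in Arabidopsis a phloem nitrate carrier, averaged 33.02 ± 1.37 FPKM in Ver and 31.3 ± 0.3201 FPKM in Nor (log2 fold change 0.07, edgeR adjusted p = 0.201). NPF2.14 BraA07g034730.3C was read in Ver libraries only, with 15, 14 and 18 counts, against 0, 0 and 0 counts in Nor libraries. Set against a floor of 3 counts per library it was at least 5.19-fold higher in Ver (edgeR adjusted p = 0.00653), at a level below 0.1 FPKM. It passed the count filter through the Ver libraries alone.

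Copies of 1 name often had different calls. There were 48 names with at least 2 copies (135 members). Of 42 names with at least 2 tested copies, 25 had both called and not called copies and 14 had no called copy. In 7 names at least 2 called copies all moved 1 way, and such a name can also hold a copy that was not called. With 37.8% of all tested members called, mixed names can arise without a difference between copies, and this was not tested. In 20 names 1 copy held at least 80% of the level. For NPF6.3, the log2 ratio of the A08 to the A09 copy was -0.41 ± 0.10 in Ver and 0.99 ± 0.03 in Nor (SD, n = 3 each), so the A08 copy was the lower one in Ver and the higher one in Nor. For the nitrate reductases PBNBR1412 and PBNBR1412-like it was 0.00 ± 0.14 in Ver and 2.55 ± 0.04 in Nor. For the NPF2.13 copies BraA02g019460.3C and BraA07g034740.3C it was -1.88 ± 0.10 in Ver and -6.16 ± 0.57 in Nor. For the A09 and A06 copies of NPF2.11-like it was -4.36 ± 0.14 in Ver and -1.83 ± 0.10 in Nor. In each of these pairs the ratio moved by more than the spread between dishes, but the pairs were picked after their values were seen and no test was made.

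**Figure D4:**
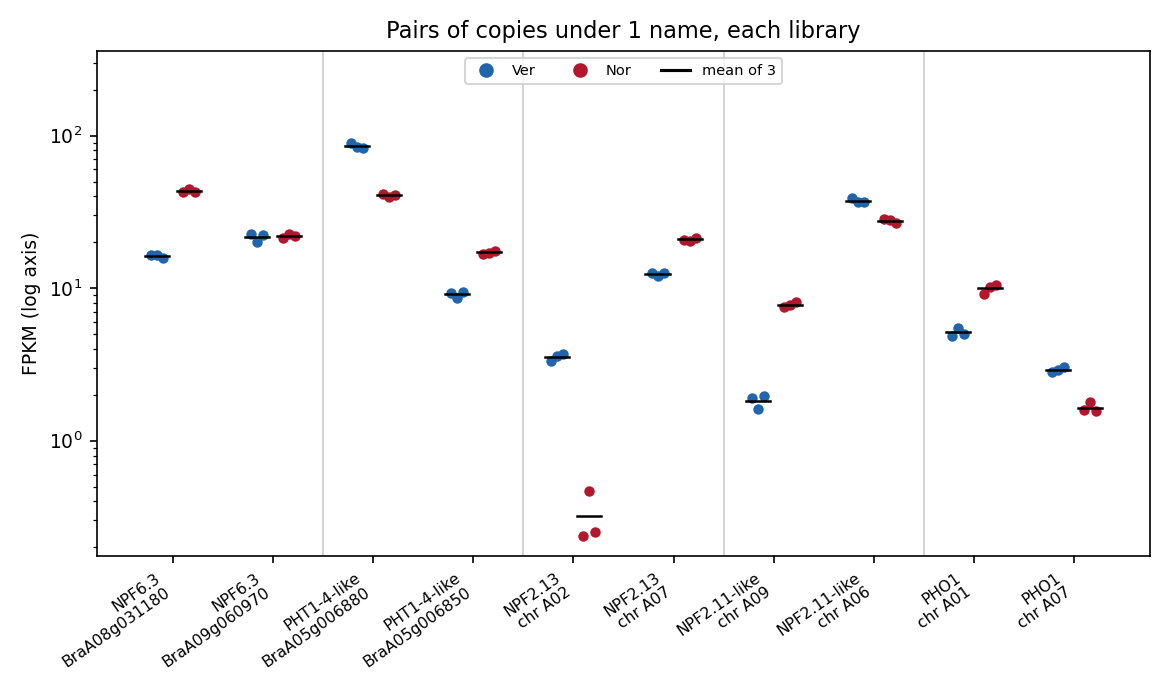
FPKM (log axis) in each library for 5 pairs of copies that share a name, Ver in blue left of Nor in red, with black lines at the mean of 3 and grey lines between pairs. In 4 of the pairs the 2 copies lie on opposite sides between the groups, and the A09 copy of NPF6.3 overlaps while its A08 copy is lower in Ver. The A07 copy of NPF2.13 shown is BraA07g034740.3C.

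Ammonium transporters had 2 rises and 1 fall among 8 tested (37.5%, against 15.0% of all reference transcripts), and they summed to 53.4 ± 0.787 FPKM in Ver and 50.1 ± 1.06 FPKM in Nor (SD, n = 3 each). AMT1 member 1, a root ammonium uptake protein in Arabidopsis (BraA05g015290.3C), held most of this level. It had 37.8, 36.4 and 35.2 FPKM in Ver libraries and 35.4, 37.2 and 36.1 FPKM in Nor libraries, which overlapped (log2 fold change 0.01, edgeR adjusted p = 0.909). Member 2 (BraA09g000010.3C, A09:4196-5870, plus strand), which takes up ammonium from the apoplast of inner root cells in Arabidopsis, had 5.099, 4.95 and 5.28 FPKM in Ver libraries, against 2.09, 2.63 and 2.29 FPKM in Nor libraries. It rose with a log2 fold change of 1.13 ± 0.11 (edgeR adjusted p = 0.00124). The ammonium transporter 2-like BraA04g027130.3C had 1.88, 2.56 and 2.46 FPKM in Ver libraries, against 0.959, 0.881 and 0.893 FPKM in Nor libraries (log2 fold change 1.33 ± 0.17, edgeR adjusted p = 0.00319), and its gene sum had a log2 fold change of 0.98, just under the threshold. Member 3 (BraA07g008780.3C) fell to 0.1804, 0.0744 and 0.108 FPKM in Ver libraries, against 0.772, 0.747 and 0.698 FPKM in Nor libraries (log2 fold change -2.59 ± 0.38, edgeR adjusted p = 0.00517).

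Phosphate uptake fell in 5 transcripts and rose in 1 of 17 tested (35.3%, against 15.0% of all tested reference transcripts). Of these falls, 3 were in PHT1-3 transcripts with no counts in Ver, which passed the count filter through the Nor libraries alone. Their calls lend that share no separate support. The median log2 fold change was -0.92, which was the same with floor members set at their bounds. The summed level was 154 ± 2.97 FPKM in Ver and 137 ± 3.096 FPKM in Nor (SD, n = 3 each), and 1 transcript held more than any other. That transcript, the PHT1-4-like BraA05g006880.3C (A05:3487474-3489078, minus strand), a high-affinity phosphate carrier by name, had 89.2, 84.05 and 83.2 FPKM in Ver libraries, against 41.1, 39.6 and 40.9 FPKM in Nor libraries. It rose with a log2 fold change of 1.07 ± 0.04 (edgeR adjusted p = 4.10e-05). On the same strand, its namesake BraA05g006850.3C (A05:3479273-3480877, minus strand) had 9.24, 8.59 and 9.48 FPKM in Ver libraries and 16.8, 16.9 and 17.7 FPKM in Nor libraries. This neighbour was lower in every Ver library, at a log2 fold change of -0.92 ± 0.05 that was just under 2-fold (edgeR adjusted p = 1.87e-04). The log2 ratio of BraA05g006880.3C to BraA05g006850.3C was 3.23 ± 0.09 in Ver and 1.24 ± 0.04 in Nor (SD, n = 3 each). PHT1-4 itself (BraA04g027480.3C) averaged 9.28 ± 0.282 FPKM in Ver and 14.6 ± 0.439 FPKM in Nor (log2 fold change -0.66, edgeR adjusted p = 4.18e-04).

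Of 7 transcripts named PHT1-3, 6 were tested and 4 fell. The highest, BraA09g019760.3C (A09:12730743-12732443, minus strand), had 9.24, 9.57 and 9.02 FPKM in Ver libraries, against 25.4, 26.5 and 28.4 FPKM in Nor libraries (log2 fold change -1.53 ± 0.05, edgeR adjusted p = 3.64e-05). The other 3 had 0 counts in every Ver library. BraA09g019770.3C, the next gene on the same strand (A09:12735210-12736920, minus strand), had 33, 53 and 47 counts in Nor libraries and was at least 15.1-fold lower in Ver. BraA09g019830.3C had 29, 53 and 62 counts in Nor libraries and was at least 16.3-fold lower in Ver, though it overlaps the gene model BraA09g019820.3C and shares its end. BraA02g030600.3C had 36, 25 and 18 counts in Nor libraries and was at least 8.86-fold lower in Ver. For these 3 the edgeR adjusted p was 0.00515, 0.00699 and 0.00808. All 3 passed the count filter through the Nor libraries alone, so these p-values are no separate support. Each bound is set against 3 counts per library, a set value that is no statistical limit. PHT1 genes in tandem can share reads, so these low counts are uncertain, and the part of shared reads was not tested. The 2 plastid phosphate carriers of the PHT2 type summed to 30.4 ± 1.67 FPKM in Ver and 23.3 ± 0.692 FPKM in Nor, and neither was called by edgeR, although 1 had an adjusted p of at most 0.05 with a change under 2-fold.

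In the PHO1 family, 2 transcripts rose and 3 fell of 14 tested (35.7%, against 15.0% of all tested reference transcripts). PHO1 itself, which loads phosphate into the xylem in Arabidopsis, has a pair of copies. BraA01g030610.3C had 4.88, 5.499 and 5.02 FPKM in Ver libraries and 9.196, 10.2 and 10.5 FPKM in Nor libraries, with no overlap and a log2 fold change of -0.96 ± 0.08 (edgeR adjusted p = 5.74e-04). It was just under the fold threshold, and passed it without Nor 1 or without Ver 2, at -1.01 in each case. BraA07g009670.3C had 2.81, 2.92 and 3.05 FPKM in Ver libraries and 1.596, 1.79 and 1.56 FPKM in Nor libraries (log2 fold change 0.83, edgeR adjusted p = 0.00217). The largest rise was that of PHO1 homolog 8-like BraA08g025870.3C (A08:18588106-18591605, plus strand), with 10.5, 9.15 and 9.49 FPKM in Ver libraries, against 1.97, 1.86 and 1.72 FPKM in Nor libraries. Its log2 fold change was 2.39 ± 0.09 (edgeR adjusted p = 4.37e-05), and in Ver it stood above every other PHO1 transcript. On A06, PHO1 homolog 2-like BraA06g039370.3C fell to 0.5804, 0.694 and 0.445 FPKM in Ver libraries, against 1.67, 1.79 and 1.58 FPKM in Nor libraries (log2 fold change -1.55 ± 0.199, edgeR adjusted p = 0.00322). PHO1 homolog 3 BraA06g010150.3C had 0, 0 and 0 counts in Ver libraries, against 27, 16 and 19 counts in Nor libraries, and was at least 6.88-fold lower in Ver (edgeR adjusted p = 0.00642). It passed the count filter through the Nor libraries alone.

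SPX proteins, which sense phosphate status and hold back the phosphate starvation response in Arabidopsis, had no called member among 5 tested by edgeR, with 2 of the 5 at an adjusted p of at most 0.05 and a change under 2-fold, and the same count of 2 at an unadjusted p under 0.05. The most abundant was SPX protein 4 (BraA10g024060.3C), with 14.9, 15.9 and 16.4 FPKM in Ver libraries and 11.8, 11.1 and 11.5 FPKM in Nor libraries (log2 fold change 0.45, edgeR adjusted p = 0.00382). Its groups did not overlap. The SPX membrane transcript BraA01g013630.3C was read in 1 library alone, with 0, 561 and 0 counts in Ver libraries and 0, 0 and 0 counts in Nor libraries, and was not tested. It held 3.74% of the counts of its assembled gene, and that gene had 3653, 3822 and 3746 normalized counts in Ver libraries, against 1300, 1317 and 1153 in Nor libraries (log2 fold change of the gene sum 1.57 ± 0.059, edgeR adjusted p = 3.81e-08).

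Sulfate transport had the highest ratio of summed levels among the 9 roles, 1.65, with 185 ± 1.95 FPKM in Ver and 112 ± 1.66 FPKM in Nor (SD, n = 3 each). It had 5 rises and 2 falls of 17 tested (41.2%, against 15.0% of all tested reference transcripts). The 2 copies of SULTR3.3, a group 3 sulfate transporter, a group known in Arabidopsis from plastids and seeds, summed to 118.2 FPKM in Ver and 43.3 FPKM in Nor. BraA09g040030.3C (A09:31307352-31312398, plus strand) had 104, 104 and 103 FPKM in Ver libraries, against 38.2, 38.8 and 38.5 FPKM in Nor libraries. The libraries of a group were nearly identical, and the log2 fold change was 1.43 ± 0.02 with the smallest adjusted p of all members (edgeR, 2.68e-06). Its copy BraA07g014340.3C (A07:13086701-13090857, plus strand) had 13.96, 14.95 and 13.7 FPKM in Ver libraries, against 4.89, 4.42 and 5.18 FPKM in Nor libraries, and rose by nearly the same factor (log2 fold change 1.55 ± 0.08, edgeR adjusted p = 1.27e-04). SULTR3.2 (BraA09g001540.3C, A09:936919-942024, minus strand) went the other way, with 2.699, 2.91 and 2.75 FPKM in Ver libraries, against 9.15, 8.997 and 9.401 FPKM in Nor libraries (log2 fold change -1.72 ± 0.06, edgeR adjusted p = 3.34e-05). All 3 of these group 3 transcripts had groups that did not overlap.

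The group 1 sulfate transporters take up sulfate at high affinity, and 3 of 4 rose. SULTR1.2, the main root uptake carrier in Arabidopsis (BraA07g041120.3C), had 7.77, 6.997 and 6.66 FPKM in Ver libraries, against 3.198, 2.21 and 3.82 FPKM in Nor libraries (log2 fold change 1.21 ± 0.22, edgeR adjusted p = 0.0102). It held 51.5% of the counts of its gene, and the gene sum had a log2 fold change of 1.59. SULTR1.1 (BraA02g014850.3C), which in Arabidopsis responds to sulfur shortage, had 1.103, 1.79 and 1.25 FPKM in Ver libraries, against 0.292, 0.108 and 0.223 FPKM in Nor libraries (log2 fold change 2.71 ± 0.44, edgeR adjusted p = 0.00734). Neither transcript had overlapping groups. SULTR1.3 (BraA09g040820.3C), a phloem form in Arabidopsis, had 16, 38 and 10 counts in Ver libraries, against 0, 0 and 0 counts in Nor libraries, and was at least 7.12-fold higher in Ver (edgeR adjusted p = 0.0246). It passed the count filter through the Ver libraries alone. Without Ver 1, Ver 2 or Ver 3 its edgeR adjusted p was 0.083, 0.058 and 0.052, so the call was lost in each case. SULTR4.1-like BraA10g025290.3C, whose Arabidopsis namesake releases sulfate from the vacuole, averaged 3.75 ± 0.179 FPKM in Ver and 3.34 ± 0.4497 FPKM in Nor, and SULTR2.1-like BraA10g027690.3C averaged 0.572 ± 0.107 FPKM in Ver and 0.432 ± 0.125 FPKM in Nor. These 2 did not pass the test (edgeR adjusted p = 0.349 and 0.354).

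**Figure D5:**
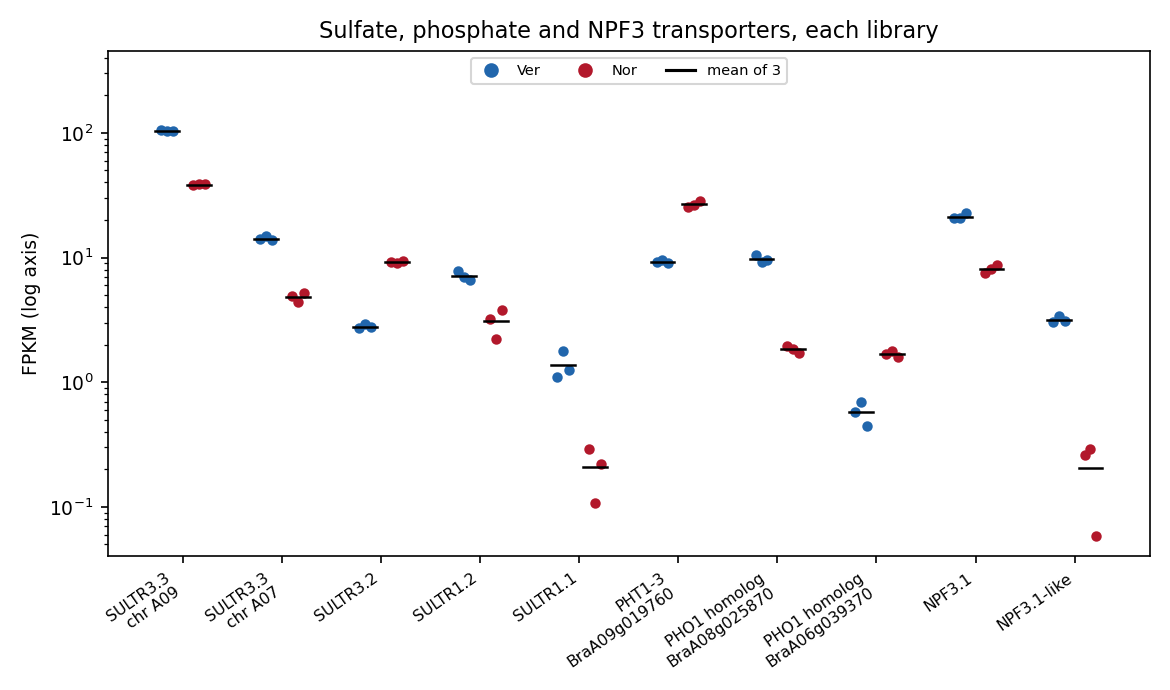
FPKM (log axis) in each library for 5 sulfate transporters, the highest PHT1-3, the PHO1 homologs 8-like (BraA08g025870.3C) and 2-like (BraA06g039370.3C) and 2 NPF3 transcripts, Ver in blue left of Nor in red, with black lines at the mean of 3. SULTR3.2, PHT1-3 and PHO1 homolog 2-like are lower in Ver and the other 7 are higher in Ver, with no overlap in any.

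With gaps of at most 25000 bp, 40 members formed 16 clusters, and by counts per transcript no cluster held a member that rose beside one that fell. On A06, PHO1 homolog 2-like BraA06g039370.3C and homolog 5-like BraA06g039380.3C both fell (log2 fold changes -1.55 and -2.49). Their neighbour BraA06g039360.3C, also PHO1 homolog 2-like, had 33, 30 and 47 counts in Ver libraries, against 8, 0 and 0 counts in Nor libraries. It was not called by counts per transcript (edgeR adjusted p = 0.0941) but was called higher in the fit on gene sums (log2 fold change 3.74, edgeR adjusted p = 0.0111), although it is the single transcript of its gene. The pairs of NPF2.11-like and of PHT1-3 genes on A09, described above, were the other clusters with more than 1 called member.

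Other genes of the nitrogen, sulfate and phosphate pathways, both enzymes and regulators, were tested on 4 lists in the same edgeR fit. Of 16 tested transcripts for nitrogen assimilation after ammonium, 2 rose and 0 fell (12.5%, against 15.0% of all reference transcripts). Among them an asparagine synthetase (BraA06g023920.3C), which moves glutamine nitrogen to asparagine, had 4.99, 4.77 and 5.48 FPKM in Ver libraries, against 0.888, 0.903 and 0.661 FPKM in Nor libraries (log2 fold change 2.63 ± 0.16, edgeR adjusted p = 2.39e-04). Of 34 for sulfate assimilation, 1 rose and 3 fell (11.8%). ATP sulfurylase 4, which activates sulfate (BraA06g043580.3C), fell to 17.8, 19.1 and 18.8 FPKM in Ver libraries, against 60.8, 59.3 and 61.00 FPKM in Nor libraries (log2 fold change -1.702 ± 0.04, edgeR adjusted p = 1.03e-05). The single rise, the 5'-adenylylsulfate reductase-like 7 transcript BraA03g008340.3C (log2 fold change 1.03, edgeR adjusted p = 0.0433), lost its call with its gene sum, at 0.21, and without any library except Nor 2.

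Of 48 tested transcripts for phosphate economy (purple acid phosphatases, PHOSPHATE STARVATION RESPONSE proteins, lipid synthases and glycerophosphodiesterases), 2 rose and 12 fell (29.2%), with a median log2 fold change of -0.30. The glycerophosphodiester phosphodiesterase GDPD2-like BraA07g020420.3C had 1.16, 1.05 and 1.69 FPKM in Ver libraries, against 7.41, 8.56 and 8.71 FPKM in Nor libraries (log2 fold change -2.66 ± 0.22, edgeR adjusted p = 6.45e-04). Of 31 nutrient regulators, 1 rose and 4 fell (16.1%). The BTB/TAZ protein 4 transcript BraA06g029570.3C, at a log2 fold change of 1.002 (edgeR adjusted p = 0.00289), was at the threshold and was not called without Nor 1 (0.89) or without Ver 3 (0.96). BTB/TAZ protein 5 (BraA03g060860.3C) fell to 1.86, 2.03 and 2.02 FPKM in Ver libraries, against 5.502, 5.32 and 5.47 FPKM in Nor libraries (log2 fold change -1.46 ± 0.09, edgeR adjusted p = 2.63e-04).

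Counts per transcript depend on how reads were shared among the isoforms of a gene. Of the 175 members, 135 were the only transcript of their assembled gene and 19 held less than 20% of its counts. Of the 56 called members, 55 were called the same way on counts summed over the gene, the exception being ammonium transporter 2-like. A further 11 members were called in the fit on gene sums alone, 6 higher and 5 lower in Ver, of which 5 held all counts of their gene, so that their counts were the same and only the fit differed, while 17.8% of all gene sums were called (8.43% higher and 9.33% lower). The gene of NPF6.4 BraA05g025490.3C had 4604, 4796 and 5613 normalized counts in Ver libraries, against 590, 1104 and 1147 in Nor libraries (log2 fold change of the gene sum 2.40 ± 0.22, edgeR adjusted p = 1.28e-05), and the reference transcript held 3.60% of them. The gene of glutamine synthetase 1-3-like BraA01g034850.3C had 277, 232 and 316 normalized counts in Ver libraries, against 1227, 1193 and 1185 in Nor libraries (log2 fold change of the gene sum -2.13 ± 0.12, edgeR adjusted p = 4.42e-07). In both genes the reference transcript alone was not called.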

How the data were processed

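RNA of 3 Ver and 3 Nor dishes was sequenced by the authors after ribosomal RNA depletion, as strand-specific paired-end libraries. The study's methods name Cutadapt for trimming, TopHat2 (with Bowtie2) for alignment to the B. rapa v3.0 genome, StringTie and Ballgown for assembly and levels, and TopHat-Fusion with CIRCExplorer for circRNAs, and the submitters' processing notes also name HISAT2. The deposited linear table held estimated counts per transcript and FPKM (a value of 0 was written as 0.0001 by the authors), and the deposited circRNA table held back-splice junction counts. How the estimated counts were derived was not given in the sources used here, and they are not fragments. Their totals, between 83976912 and 104903263 per library, therefore do not give the precision of low transcripts.

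The deposited estimated counts were whole numbers and were used as they stood. Low transcripts were filtered with filterByExpr over all 57931 linear transcripts (49351 tested), and edgeR 4.0.16 (TMM, glmQLFit, glmQLFTest) in R 4.3.3 compared Ver with Nor. Benjamini-Hochberg adjustment was made over the 26531 tested reference transcripts alone. SE of the log2 fold change was derived from the F statistic. FPKM gave levels and entered only the limma alternatives. Alternatives used DESeq2 1.42.0 and limma 3.58.1. Tables and plots used Python 3.11, pandas 2.3.3, NumPy 2.4.6 and matplotlib 3.10.9. All columns of samples were used. Where 1 group had a count of 0 in all libraries, a fold is a bound against 3 counts per library. This floor was a set value, and as the counts are not fragments it is no statistical limit. Such transcripts passed the count filter through the other group alone, so their edgeR p-values are no separate support.

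Members and lists were chosen with earlier results of these data known. By rule, the text names called members without overlap that had at least 1 FPKM in the higher group and a gene sum of the same direction (up to the 30 largest changes), the most abundant member of each role, members with at most 3 counts in each library of 1 group and a mean of at least 10 in the other, and in each pathway list the largest rise and fall. Copies under 1 name, NRT2 members, ammonium transporter 3 and gene sums were named after their values were seen. Exact permutation of 3 against 3 dishes cannot go below p = 0.1, so no single-value test was made. Whether replicate numbers pair Ver with Nor dishes was not given in the sources used here. The deviations of same-numbered libraries correlated at r between -0.00285 and 0.00292. No shared shift was seen, but this cannot show that the dishes were unpaired.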

Additional observations from a re-analysis of the deposited data

How the results depend on the processing

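Of the 56 called members, 45 were called with each library left out in turn. Counts of called members ranged from 50 to 52 (24 to 28 higher and 23 to 26 lower in Ver) over these settings. With limma on log2(FPKM + 1), a scale that understates low transcripts, 22 were called (13 higher and 9 lower), and with no fold threshold 83 were called (41 higher and 42 lower). With the replicate number as a block, 41 were called (24 higher and 17 lower), and 14 of the 15 lost had a mean below 1 FPKM in both groups. Whether the numbers pair the dishes is not known. DESeq2 called 62 and gene sums 66. The pathway lists had 25 called transcripts, 11 with limma on log2(FPKM + 1) and 54 with no fold threshold. The number of reference mRNAs called was 3975, and 1953 with limma on log2(FPKM + 1), 2606 with the replicate block and 8984 with no fold threshold. Of the 37 named called members, 21 kept their call under every one of the 18 alternatives, and the others were weaker under at least 1. By single values, 630 of 660 were the same and 30 were weaker. None reversed, but all alternatives drew on the same 6 libraries. Left out singly, libraries moved 3 folds by over 1.5 times, those of NRT2.6 BraA01g025690.3C (log2 2.57 to 4.47), PHO1 homolog 1-like BraA02g018640.3C (1.41 to 2.32) and SULTR1.3 BraA09g040820.3C, whose fitted fold is no bound because it had 0 counts in every Nor library. Each was below 1 FPKM.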
